A study of Homo sapiens with 18 samples.

Results

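The genes described here are 10 genes of sulfate activation and heparan sulfate proteoglycans: PAPSS1, PAPSS2, SULF1, SULF2, SDC1, SDC2, SDC4, GPC1, GPC6 and NDST1. They were chosen by name with earlier results of these same arrays known, so the log2 levels of the 6 groups and the differences between them chose the members. Their values are given as a description, without p-values, and support nothing beyond these arrays. Of the 10 genes, 9 were measured among 18417 genes in all, each by 1 probe set annotated to that gene alone. SDC4 was not measured separately, because its probe set is annotated to both SDC4 and ROS1.

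Total RNA of 18 samples was measured on arrays, 3 in each of 6 groups. HMLE cells, a human mammary epithelial line made with telomerase and SV40 early genes, carried an empty vector, a Snail expression vector or a Twist expression vector. MCF10A cells, a spontaneously immortalised mammary epithelial line, carried the same 3 kinds of vector according to the labels. The label MCF10A Twist is set against the values of its arrays below. All cells grew in medium with serum. Snail (SNAI1) and Twist (TWIST1) are transcription factors that drive the epithelial-mesenchymal transition. Stable clones were selected, per the labels, which do not give the number of clones or say whether the 3 samples of a group were separate cultures. The p-values below thus reflect how far these samples spread, and that spread could be technical.

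Heparan sulfate is a long sugar chain built on a core protein at the cell surface or in the matrix, where sulfate groups along the chain bind growth factors and their receptors. Sulfate is first activated to PAPS, the donor molecule for all sulfotransferases, by the bifunctional PAPS synthases. Enzymes such as NDST1 then place sulfate on the growing chain in the Golgi, and the SULF enzymes remove 6-O-sulfate from finished chains outside the cell. Syndecan 1 is the main syndecan of epithelia, and syndecan 2 is typical of mesenchymal cells.

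SNAI1 rose with Snail from 7.39 ± 0.14 to 12.53 ± 0.01 (log2 mean ± SD, n = 3) in HMLE and from 8.32 ± 0.14 to 12.49 ± 0.07 in MCF10A. TWIST1 rose by 1.8 ± 0.07 (log2 difference ± SE) with Twist and by 1.12 ± 0.07 with Snail in HMLE, so the HMLE Snail arrays also held more TWIST1 than vector. On the arrays labelled MCF10A Twist, TWIST1 differed by 0.92 ± 0.07 from MCF10A vector, under the 2-fold limit, and by 1.3 ± 0.07 from HMLE vector. SNAI1 stood at 8.25 ± 0.12 on these arrays. Those 3 arrays went against their label at 9p21, a region deleted in MCF10A: the salvage enzyme gene MTAP stood at 10.8 ± 0.03 there, at 5.98 ± 0.36 in MCF10A vector and at 10.26 ± 0.04 in HMLE vector. They are called the arrays labelled MCF10A Twist throughout, and their values are set against both vector groups. E-cadherin (CDH1), the adhesion protein of epithelia, had group means of 12.27, 6.62 and 6.62 in HMLE with vector, Snail and Twist, and of 12.27, 11.7 and 6.85 in the groups labelled MCF10A. A list of 7 epithelial markers had a mean level per array of 12.95 to 13 in HMLE vector, 8.52 to 8.56 with Snail and 7.79 to 7.98 with Twist. It lay at 12.7 to 12.74 in MCF10A vector, 12.22 to 12.28 with Snail and 8.1 to 8.16 on the arrays labelled MCF10A Twist. Of these 7 markers, 7 fell with each factor in HMLE and 1, EPCAM, fell with Snail in MCF10A. Of 6 fibroblast markers 6 rose with each factor in HMLE and 1 rose with Snail in MCF10A, and their mean level per array was at most 7.68 in HMLE vector and at least 11.13 with either factor. Of 3 endothelial and 3 leukocyte markers 0 were called with either factor in HMLE, where limma called 0 or 1 of each 3 without the 2-fold limit and 1 or 2 at an unadjusted p under 0.05. The leukocyte marker CD14 was 4.51 ± 0.11 higher in MCF10A vector than in HMLE vector and fell by 1.81 ± 0.11 with Snail in MCF10A. The other leukocyte markers did not follow it. PTPRC had means of 4.59 in HMLE vector, 4.61 in MCF10A vector and 4.76 in MCF10A Snail, and CD3E of 6.41, 6.39 and 6.4. On the arrays labelled MCF10A Twist CD14 was -3.21 ± 0.11 from MCF10A vector and 1.3 ± 0.11 from HMLE vector. The Snail effects on CD14 and on the endothelial marker PECAM1 differed between the lines, by 1.64 ± 0.15 and 1.43 ± 0.16 (HMLE minus MCF10A). The part of these shifts in the results below was not tested.

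**Figure D1:**
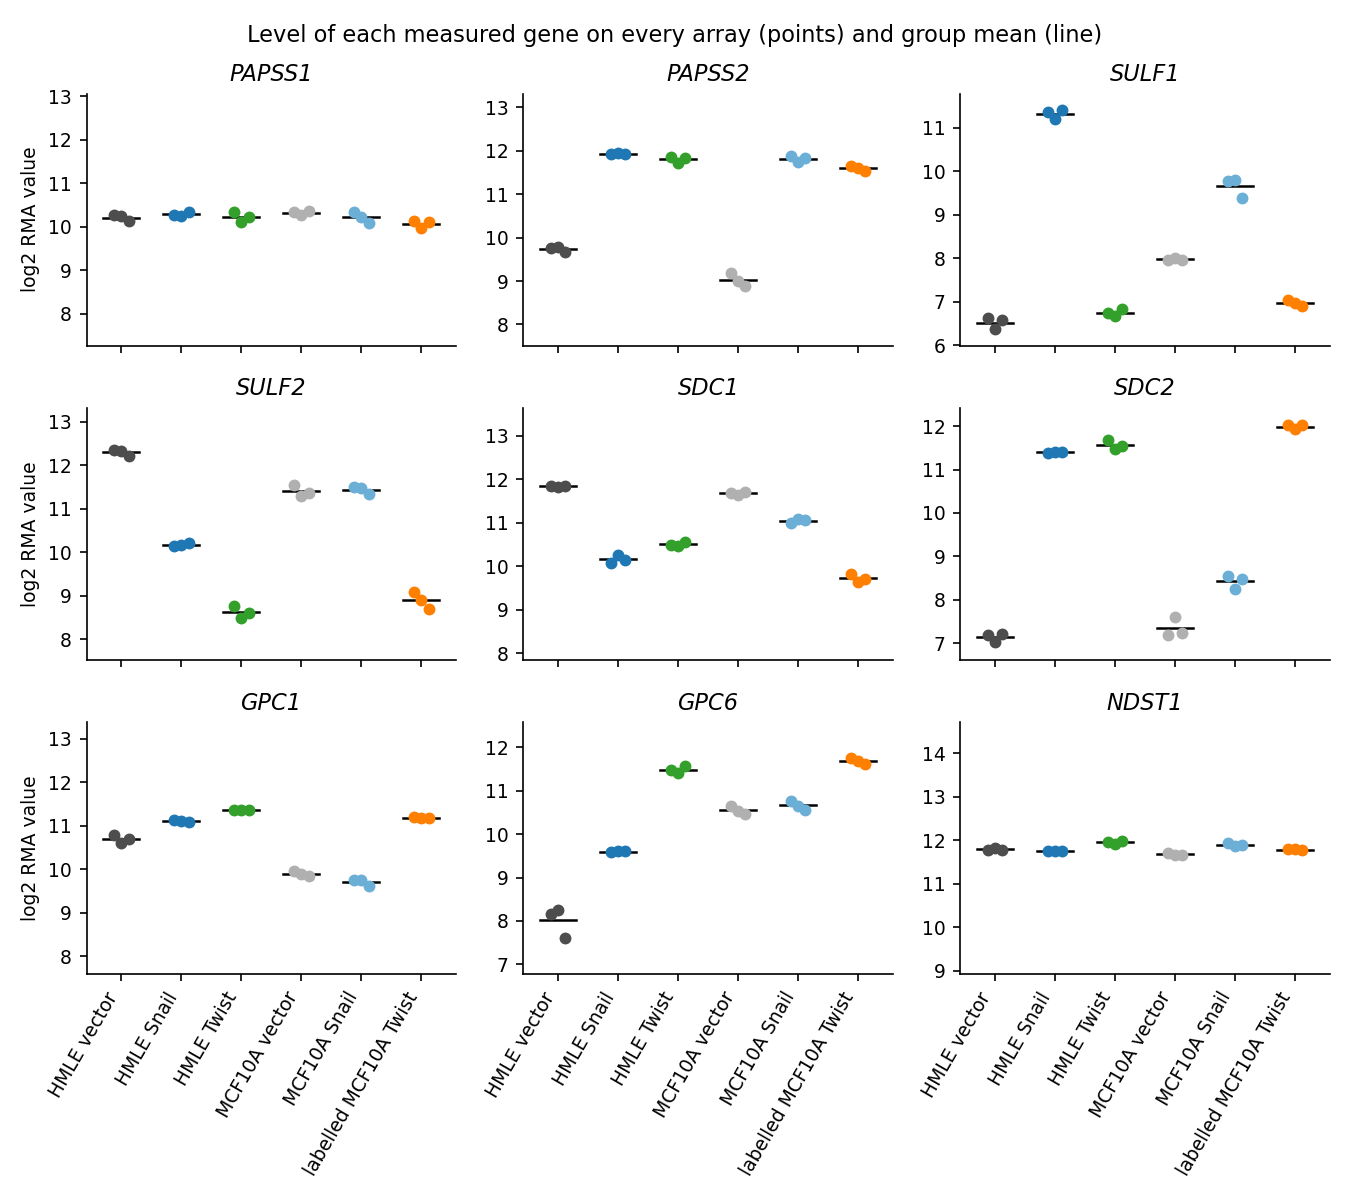
Log2 RMA value (vertical axis) of the 9 measured genes on each of the 18 arrays, in 6 groups of 3 (horizontal axis); points are arrays and lines are group means. PAPSS2 was higher in all 4 groups labelled with a factor than in either vector group. SULF1 was highest in HMLE Snail at a mean of 11.32, and PAPSS1 and NDST1 stayed within 0.25 and 0.27 log2 units between group means.

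Sulfate activation was described by the PAPS synthases PAPSS1 and PAPSS2, which catalyse the same reactions. PAPSS2 was higher in every group labelled with a factor than in the vector groups. Its log2 values were 9.76, 9.78 and 9.66 in HMLE vector, 11.92, 11.95 and 11.92 with Snail and 11.86, 11.71 and 11.83 with Twist. In MCF10A they were 9.19, 9.01 and 8.88 with vector and 11.87, 11.73 and 11.82 with Snail. The arrays labelled MCF10A Twist gave 11.65, 11.6 and 11.54. All 12 arrays labelled with a factor were above all 6 vector arrays. Here and below, the share of all genes whose groups do not overlap was not counted. The rise was 2.2 ± 0.07 with Snail and 2.07 ± 0.07 with Twist in HMLE (4.58-fold and 4.19-fold), and 2.78 ± 0.07 with Snail in MCF10A (6.87-fold). On those labelled MCF10A Twist it was above MCF10A vector by 2.57 ± 0.07 and above HMLE vector by 1.86 ± 0.07. In RNA of whole cultures, fewer cells of a type and less RNA per cell cannot be told apart.

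By absolute difference PAPSS2 ranked 15 of all genes with Snail in MCF10A, 444 with Snail in HMLE and 472 with Twist in HMLE. MCF10A vector was below HMLE vector by -0.71 ± 0.07, and both Snail groups ended within 0.12 of each other, at 11.93 ± 0.02 and 11.81 ± 0.07. PAPSS1, by contrast, lay between 9.98 and 10.35 on all 18 arrays. Its groups overlapped in each comparison made here except that between the arrays labelled MCF10A Twist and MCF10A vector (-0.25 ± 0.07). No neighbouring groups in its order were separated.

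NDST1, the N-deacetylase and N-sulfotransferase that begins sulfation of the chain, was as steady. Its 18 values lay between 11.65 and 11.98, and its difference from vector was -0.03 ± 0.04 with Snail and 0.16 ± 0.04 with Twist in HMLE. With Snail in MCF10A it was 0.22 ± 0.04, with no overlap between the groups (11.94, 11.86 and 11.88 against 11.71, 11.65 and 11.66). None of these passed the 2-fold limit.

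The extracellular sulfatases SULF1 and SULF2 act on the same sulfate groups, and they did not move together. SULF1 stood at 6.62, 6.37 and 6.57 in HMLE vector and at 11.36, 11.2 and 11.41 with Snail, a rise of 4.8 ± 0.09 or 27.9-fold. Its mean in HMLE vector was at the 19.6 percentile of all genes there, and whether that level is above background was not tested, so folds against it are fitted values on the array's scale. With Twist in HMLE it stood at 6.73, 6.68 and 6.82, a difference of 0.23 ± 0.09. In MCF10A it stood at 7.97, 8.01 and 7.96 with vector and at 9.77, 9.79 and 9.39 with Snail, a rise of 1.67 ± 0.09 or 3.19-fold. Both Snail groups were thus above every other array, and no groups next to each other in its order overlapped. The arrays labelled MCF10A Twist, at 7.03, 6.97 and 6.9, were lower than MCF10A vector by -1.01 ± 0.09 and above HMLE vector by 0.45 ± 0.09. The first of these lies at the 2-fold limit, and the call was lost without MCF10A vector replicate 2 or without labelled MCF10A Twist replicate 3, with values from -1.06 to -0.98 over all alternatives.

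SULF2 fell in HMLE with both factors. Its values were 12.36, 12.32 and 12.22 with vector, 10.14, 10.16 and 10.22 with Snail and 8.76, 8.48 and 8.61 with Twist. The 3 HMLE groups did not overlap, and the fall was by 2.12 ± 0.1 with Snail (4.36-fold) and by 3.68 ± 0.1 with Twist (12.8-fold). In MCF10A the Snail values of 11.5, 11.48 and 11.34 overlapped the vector values of 11.54, 11.29 and 11.36, with a difference of 0.04 ± 0.1. The arrays labelled MCF10A Twist, at 9.09, 8.9 and 8.68, overlapped HMLE Twist and were below MCF10A vector by -2.51 ± 0.1 and below HMLE vector by -3.41 ± 0.1. In HMLE the Snail arrays therefore held high SULF1 with intermediate SULF2, and the Twist arrays low values of both relative to each gene's own range.

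The syndecans, transmembrane core proteins that carry heparan sulfate, moved in opposite directions. SDC1 stood at 11.84, 11.82 and 11.85 in HMLE vector, at 10.07, 10.26 and 10.14 with Snail and at 10.48, 10.47 and 10.55 with Twist. It fell by 1.68 ± 0.06 with Snail (3.2-fold) and by 1.34 ± 0.06 with Twist (2.53-fold). In MCF10A it stood at 11.68, 11.65 and 11.71 with vector and 10.99, 11.08 and 11.07 with Snail, a difference of -0.63 ± 0.06 under the 2-fold limit. Lowest were the arrays labelled MCF10A Twist, at 9.81, 9.64 and 9.71, at -1.96 ± 0.06 from MCF10A vector and -2.12 ± 0.06 from HMLE vector. All 6 groups were separate from their neighbours in order.

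SDC2 rose from 7.2, 7.02 and 7.21 in HMLE vector to 11.37, 11.41 and 11.41 with Snail and 11.67, 11.48 and 11.54 with Twist. These rises were 4.25 ± 0.1 (19.1-fold) and 4.42 ± 0.1 (21.5-fold). Its means in HMLE vector and MCF10A vector were at the 28.6 and 32.2 percentile of all genes. It was not tested whether these vector levels are above background, so folds against them are fitted values on the array's scale. In MCF10A the Snail values of 8.55, 8.25 and 8.48 lay above the vector values of 7.19, 7.61 and 7.23, a rise of 1.09 ± 0.1 or 2.12-fold. The vector groups of both lines overlapped, with a difference of 0.2 ± 0.1. The arrays labelled MCF10A Twist, at 12.02, 11.93 and 12.02, were above every other array and differed by 4.65 ± 0.1 from MCF10A vector and 4.85 ± 0.1 from HMLE vector. The probe set shared by SDC4 and ROS1 was highest in HMLE vector (12.45 to 12.47) and lowest on the arrays labelled MCF10A Twist (11.31 to 11.36), and it cannot be assigned to either gene.

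**Figure D2:**
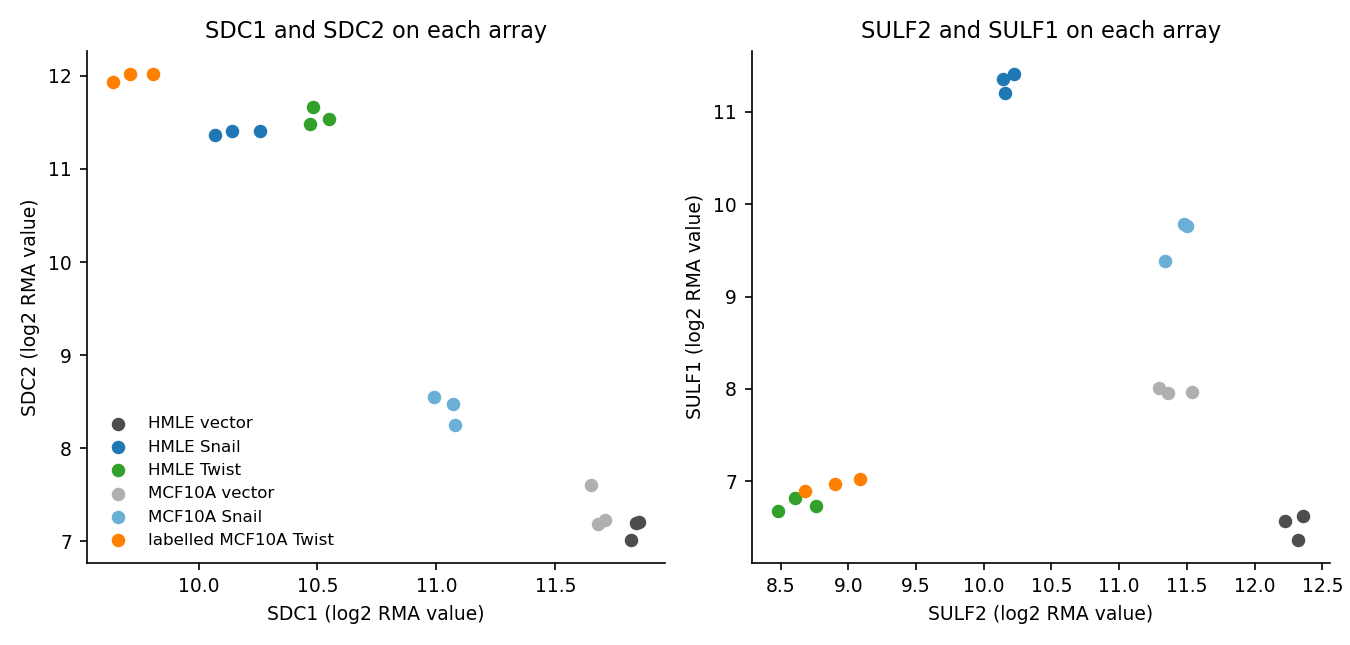
Log2 RMA values of SDC2 against SDC1 (left) and SULF1 against SULF2 (right) on the 18 arrays, coloured by group. On the left the arrays run from the vector groups at lower right to HMLE Snail, HMLE Twist and the arrays labelled MCF10A Twist at upper left, with MCF10A Snail between; on the right HMLE Snail and HMLE Twist lie apart in both genes, SULF1 at means of 11.32 and 6.75.

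The glypicans, core proteins held to the membrane by a lipid anchor, differed by line as well as by factor. GPC6 stood at 8.17, 8.26 and 7.61 in HMLE vector, at 9.58, 9.61 and 9.6 with Snail and at 11.47, 11.41 and 11.56 with Twist. It rose by 1.59 ± 0.12 with Snail (3.01-fold) and by 3.47 ± 0.12 with Twist (11-fold), and the 3 groups were separate. MCF10A already held it at 10.65, 10.53 and 10.45 with vector, 2.53 ± 0.12 above HMLE vector, and the Snail values of 10.77, 10.65 and 10.56 overlapped these. Values of 11.74, 11.69 and 11.62 on the arrays labelled MCF10A Twist were 1.14 ± 0.12 above MCF10A vector and 3.67 ± 0.12 above HMLE vector.

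GPC1 changed less. It lay at 10.6 to 10.78 in HMLE vector, 11.08 to 11.13 with Snail and 11.36 on all 3 Twist arrays, differences of 0.4 ± 0.05 and 0.66 ± 0.05 under the 2-fold limit. In MCF10A it lay at 9.85 to 9.95 with vector and 9.61 to 9.75 with Snail (-0.19 ± 0.05). The arrays labelled MCF10A Twist, at 11.17 to 11.2, were above MCF10A vector by 1.28 ± 0.05, and above HMLE vector by 0.48 ± 0.05. The 6 groups did not overlap with their neighbours in order, from HMLE Twist at the top to MCF10A Snail at the bottom. Some lay close, such as 11.17 on the arrays labelled MCF10A Twist and 11.13 in HMLE Snail. How many of all genes have groups as separate was not counted.

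**Figure D3:**
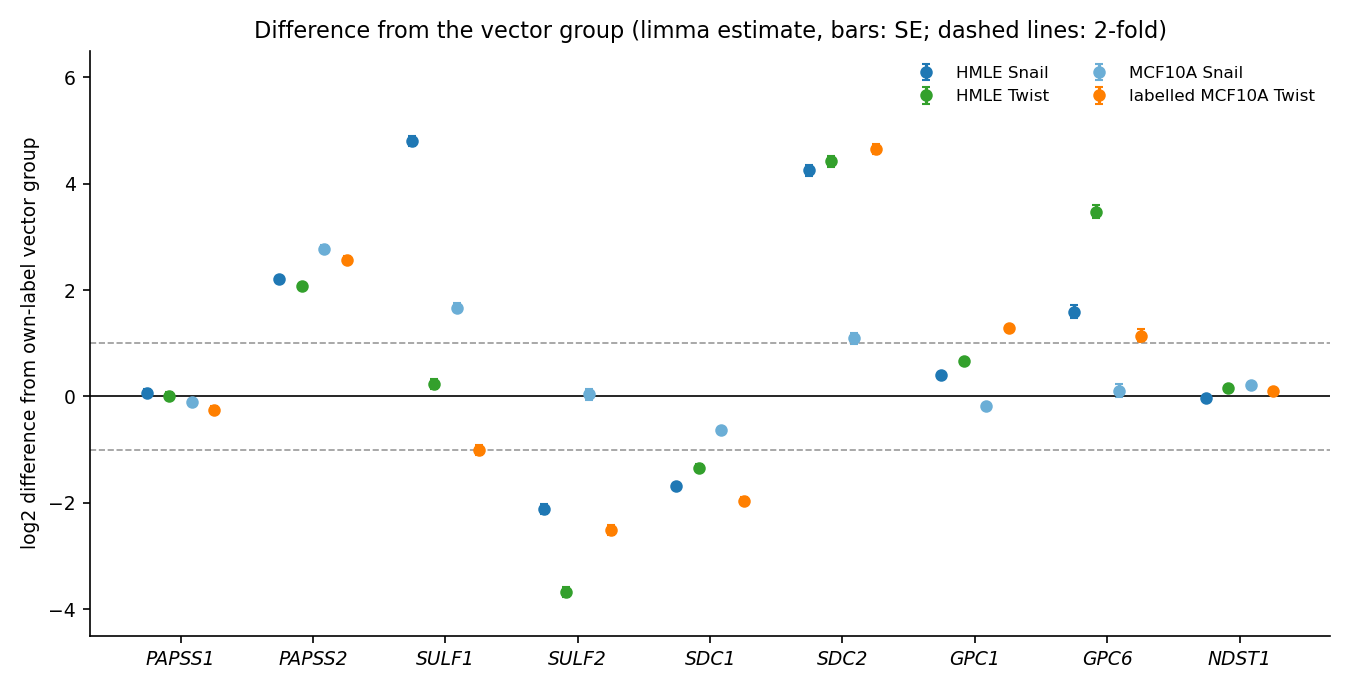
Log2 difference from the vector group of the same labelled line (vertical axis) for the 9 genes (horizontal axis); points are limma estimates, bars are SE, and dashed lines mark 2-fold. PAPSS2 lies above the upper line in all 4 groups, SULF1 at 4.8 with Snail and at 0.23 with Twist in HMLE, and PAPSS1 and NDST1 lie near 0.

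Snail binds the E-box letters CAGGTG, and Twist, a basic helix-loop-helix factor, binds E-boxes of the form CANNTG. Promoter windows of 300 bases from RefSeq (GRCh38.p14), from 250 before to 50 after a gene's start, were searched on both strands for these letters. The CAGGTG letters are one case of CANNTG, so the counts overlap. Of 11 windows of 7 of the genes (PAPSS1, SULF2, SDC1, SDC4, GPC1, GPC6 and NDST1), 3 held CAGGTG and 5 held CANNTG. No window was available for PAPSS2, SULF1 and SDC2, the genes that rose with Snail in both lines. Among all 35116 windows, 20.6% held CAGGTG and 68.7% held CANNTG. The 150 bases before the start are shown for the 3 windows that held CAGGTG. The other windows of SDC1 and SULF2 held none. Values of the 3 genes were unlike: SDC1 and SULF2 fell in HMLE with Snail, and NDST1 differed by -0.03. Capitals mark CAGGTG as read on the opposite strand (CACCTG), with its first letter at -29 for SDC1, -68 for SULF2 and -118 for NDST1, counted from the start site. The windows are chr2:20225476-20225625 (minus strand), chr20:47764429-47764578 (minus strand, the 4th of 4 SULF2 starts listed) and chr5:150497629-150497778 (plus strand). A match is a description of letters and shows no binding.
SDC1: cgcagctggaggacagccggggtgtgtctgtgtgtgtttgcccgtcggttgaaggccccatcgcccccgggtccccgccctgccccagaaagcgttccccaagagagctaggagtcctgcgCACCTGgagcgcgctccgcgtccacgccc
SULF2: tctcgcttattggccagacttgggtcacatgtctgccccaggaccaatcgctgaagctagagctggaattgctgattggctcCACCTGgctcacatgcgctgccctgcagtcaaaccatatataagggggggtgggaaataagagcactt
NDST1: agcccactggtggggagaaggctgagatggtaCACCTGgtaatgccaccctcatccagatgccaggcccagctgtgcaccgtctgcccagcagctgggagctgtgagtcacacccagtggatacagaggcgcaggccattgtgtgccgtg

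A gene was called, and is said to rise or fall, where limma's adjusted p (Benjamini-Hochberg over 18417 genes) was under 0.05 and the difference was at least 2-fold. Because the members were chosen with these results known, nothing is read from their counts. With Snail in HMLE 4 of the 9 measured genes rose and 2 fell, beside 4.46% and 4.41% of all genes. With Twist in HMLE 3 rose and 2 fell, beside 3.61% and 4.28%. With Snail in MCF10A 3 rose and 0 fell, beside 0.717% and 1.07%, and without the 2-fold limit limma called 6, beside 22.7% of all genes. On the arrays labelled MCF10A Twist 4 rose and 3 fell against MCF10A vector, beside 5.19% and 5.33%, and 3 rose and 2 fell against HMLE vector, beside 4.03% and 4.97%. The HMLE comparisons share their vector arrays, as do the MCF10A ones.

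Snail and Twist were compared directly in HMLE, where 2 members were higher with Snail and 1 was lower, beside 1.8% and 1.02% of all genes. SULF1 was 4.58 ± 0.09 higher with Snail (23.9-fold), the 3rd largest absolute difference of all genes, and SULF2 was 1.56 ± 0.1 higher. GPC6 was lower with Snail, by -1.88 ± 0.12. PAPSS2 (0.13 ± 0.07), SDC1 (-0.34 ± 0.06), SDC2 (-0.17 ± 0.1), GPC1 (-0.26 ± 0.05) and NDST1 (-0.19 ± 0.04) differed by less than 2-fold between the factors. The 3 arrays of each factor did not overlap for these genes, but the share of all genes without overlap was not counted.

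The lines with vector alone differed in 2 members, SULF1 (1.46 ± 0.09 higher in MCF10A) and GPC6, while 0 members were lower by 2-fold, where limma called 7 members in either direction without that limit, beside 44% of all genes. Of all genes 3.03% were higher and 3.32% lower in MCF10A. The effect of Snail was compared between lines as the difference of the 2 effects in the same model, in which 3 members were called with a more positive effect in HMLE and 2 with a more negative one, beside 4.58% and 4.04% of all genes. SDC2 rose more in HMLE, by 3.17 ± 0.14, and SULF1 by 3.13 ± 0.13. SULF2, which fell by 2.12 in HMLE and differed by 0.04 in MCF10A, gave -2.17 ± 0.14. PAPSS2 rose in both lines, and the effect in HMLE minus that in MCF10A was -0.59 ± 0.1 (95% interval -0.8 to -0.37), under the 2-fold limit. SDC1 gave -1.04 ± 0.08, a call that was lost without HMLE Snail replicate 1 (-1). The 7 epithelial markers had a median difference with Snail of -0.35 in MCF10A and -4.92 in HMLE, and their part in these differences was not tested.

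Other genes of sulfation and proteoglycan metabolism were taken from 8 lists of 104 genes, of which 100 were measured. These lists too were chosen with earlier results of these arrays known. Their counts and p-values are thus a description and no independent support. With Snail in HMLE 13 of the 100 rose and 5 fell, beside 4.46% and 4.41% of all genes, with a median difference of 0.11 beside -0.01. With Twist 8 rose and 7 fell, beside 3.61% and 4.28%, with a median of 0.06 beside 0.02. These shares of all genes are the background for the counts of the single lists too, which are small and are given as a description. Betaglycan (TGFBR3), a proteoglycan that presents TGF-beta to its receptors, rose by 3.83 ± 0.09 with Snail (limma adjusted p = 2.36e-15) and by 3.68 ± 0.09 with Twist (adjusted p = 3.87e-15). TGFBR3 lay at the 32.2 percentile of all genes in HMLE vector, and whether that is above background was not tested. Of the 9 other core proteins 2 rose with Snail and 1 rose and 1 fell with Twist. The syndecan SDC3 rose with Snail, by 1.37 ± 0.05 (adjusted p = 1.47e-13), and stood at 8.99 ± 0.06 with Twist beside 9.12 ± 0.04 with vector. The basement membrane proteoglycan agrin (AGRN) fell with Twist, by 1.36 ± 0.05 (adjusted p = 3.06e-13).

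**Figure D4:**
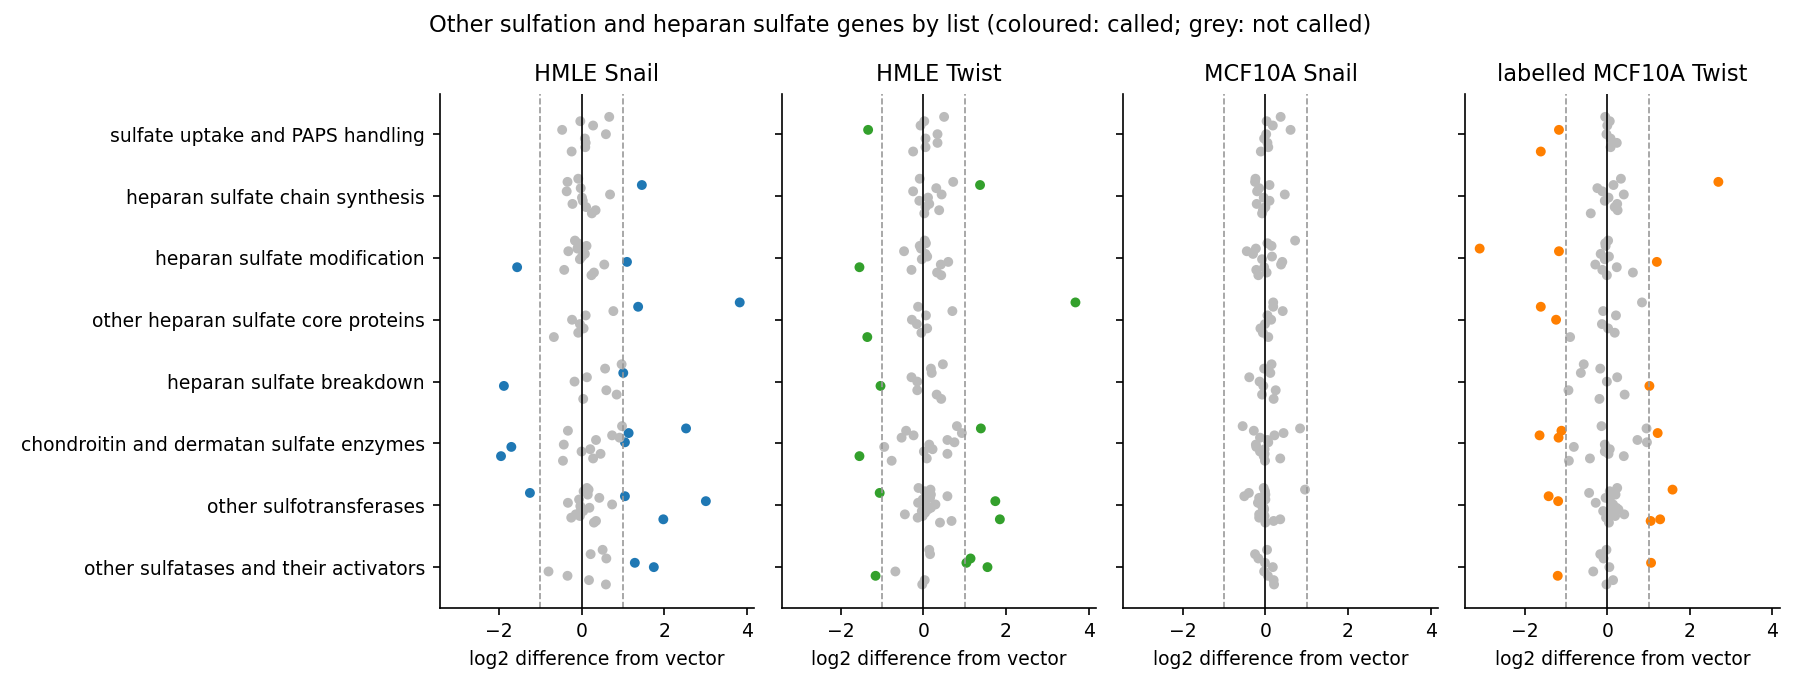
Log2 difference from the vector group of the same labelled line (horizontal axes) for the 100 other measured genes in 8 lists (vertical axis), 1 panel per group; each point is a gene, coloured where called and grey where not, and dashed lines mark 2-fold. Of the 100 genes, 18 were called with Snail and 15 with Twist in HMLE, 0 with Snail in MCF10A and 20 on the arrays labelled MCF10A Twist.

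Of 12 chain synthesis genes 1 rose with each factor, PXYLP1, the phosphatase that removes phosphate from the linker xylose (1.46 ± 0.09 with Snail, adjusted p = 8.11e-10, and 1.37 ± 0.09 with Twist, adjusted p = 2.25e-09). Of 14 measured modification genes 1 rose and 1 fell with Snail, and 1 fell with Twist. The 3-O-sulfotransferase HS3ST2 fell by 1.56 ± 0.11 with Snail (adjusted p = 2.02e-09) and by 1.55 ± 0.11 with Twist (adjusted p = 2.42e-09), while HS3ST3B1 rose by 1.1 ± 0.12 with Snail (adjusted p = 1.06e-06). Heparanase (HPSE), which cuts heparan sulfate chains, fell by 1.88 ± 0.09 with Snail (adjusted p = 2.56e-11) and by 1.04 ± 0.09 with Twist (adjusted p = 6.54e-08). Of its list of 9 measured breakdown genes the lysosomal iduronidase IDUA rose with Snail, by 1.01 ± 0.07 (adjusted p = 1.23e-09). The IDUA call was lost without HMLE vector replicate 2 and with array weights (0.96 in both), and the HPSE call with Twist without HMLE vector replicate 1 (-0.99) or HMLE Twist replicate 2 (-0.97).

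Of 9 measured genes for sulfate uptake and PAPS handling 1 was called with a factor in HMLE, the plasma membrane sulfate transporter SLC26A2, which fell by 1.34 ± 0.07 with Twist (adjusted p = 1.16e-10). With Snail it stood at 10.52 ± 0.03 beside 11 ± 0.09 with vector, a difference of -0.47 ± 0.07. Of 16 chondroitin and dermatan sulfate enzymes 3 rose and 2 fell with Snail, and 1 rose and 1 fell with Twist. The chondroitin 4-O-sulfotransferase CHST11 fell by 1.95 ± 0.08 and by 1.55 ± 0.08, and DSEL, an epimerase of dermatan sulfate, rose by 2.53 ± 0.08 and by 1.39 ± 0.08. Of 22 other sulfotransferases 3 rose and 1 fell with Snail and 2 rose and 1 fell with Twist, among them SULT1B1 (3.01 ± 0.16 and 1.74 ± 0.16), the N-acetylglucosamine 6-O-sulfotransferase CHST2 (1.98 ± 0.08 and 1.85 ± 0.08) and the cholesterol sulfotransferase SULT2B1 (-1.25 ± 0.12 and -1.06 ± 0.12). SULT1B1 lay at the 10.9 percentile of all genes in HMLE vector, and whether that is above background was not tested. Of 9 other sulfatases and activators 2 rose with Snail and 3 rose and 1 fell with Twist. ARSJ rose by 1.75 ± 0.07 and 1.55 ± 0.07, and the lysosomal glucuronate sulfatase ARSK by 1.29 ± 0.08 and 1.04 ± 0.08. With Twist the ARSK call was lost without HMLE vector replicate 3 (0.95) and the SULT2B1 call without HMLE Twist replicate 1 (-0.96).

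With Snail in MCF10A limma called 0 of the 100 genes at the 2-fold limit, 28 without it and 37 at an unadjusted p under 0.05, beside 0.717% of all genes that rose and 1.07% that fell at the limit and 22.7% called without it. SLC26A2 differed by 0.61 ± 0.07 there. Between the lines with vector, 10 of the 100 were higher in MCF10A and 4 lower, beside 3.03% and 3.32% of all genes. The 6-O-sulfotransferases HS6ST2 and HS6ST1, which add the sulfate that the SULF enzymes remove, were higher in MCF10A by 3.11 ± 0.14 (adjusted p = 1.26e-11) and 1.07 ± 0.05 (adjusted p = 4.09e-11). HS6ST2 lay at the 16.3 percentile of all genes in HMLE vector, and whether that is above background was not tested. The xylosyltransferase XYLT1, which starts the chain, was lower by -1.91 ± 0.12 (adjusted p = 9.71e-10), and the estrogen sulfotransferase SULT1E1 was higher by 4 ± 0.14 (adjusted p = 6.99e-13). Between the factors in HMLE 4 were higher with Snail and 1 lower, beside 1.8% and 1.02% of all genes, led by SDC3 (1.5 ± 0.05, adjusted p = 3.3e-13) and CHSY3, a chondroitin synthase (1.45 ± 0.13, adjusted p = 1.22e-07).

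The arrays labelled MCF10A Twist had 8 of the 100 genes higher and 12 lower than MCF10A vector, beside 5.19% and 5.33% of all genes. Against HMLE vector 5 were higher and 6 lower, beside 4.03% and 4.97%. HS6ST2 was below MCF10A vector by -3.09 ± 0.14 (adjusted p = 6.48e-12) and differed from HMLE vector by 0.02 ± 0.14 (adjusted p = 0.912). Its means on these arrays and in HMLE vector were at the 16.4 and 16.3 percentile of all genes. Whether these levels are above background was not tested. XYLT1 was above MCF10A vector by 2.69 ± 0.12 (adjusted p = 5.79e-12) and above HMLE vector by 0.78 ± 0.12. TGFBR3 was above HMLE vector by 3.75 ± 0.09 (adjusted p = 2.8e-15) and above MCF10A vector by 0.84 ± 0.09.

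The 4 members with the widest range of group means were SDC2 (4.85), SULF1 (4.8), SULF2 (3.68) and GPC6 (3.67). Over the 18 arrays, which fall into 6 groups of 3 replicates and share their normalization, the genes most like SDC2 by Pearson's r were COL6A1 (0.994), ZEB1 (0.993) and SYT11 (0.991). Those most like SULF2 were AGRN (0.993), BAIAP2L1 (0.992) and PLEK2 (0.991). SULF1 was followed by SCMH1 (0.974), ADGRL3 (0.967) and ACKR1 (0.963), of which SCMH1 spanned 0.36 log2 units between group means. GPC6 was followed by PRKAA2 (0.978), PTPRG (0.968) and EFNA5 (0.964). Among the members themselves, r was -0.96 between SDC1 and SDC2, -0.93 between SULF2 and SDC2, 0.85 between SULF2 and SDC1, and 0.13 between SULF1 and SULF2.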

How the data were processed

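Per the submitters' processing notes the authors made the deposited values with RMA, which corrects background, normalizes by quantiles and summarizes probes, with no version given. The deposited log2 values cover 33297 probe sets, whose scale is inferred from their range. RMA compresses differences of dim genes. Array medians lay at 7.698 to 7.793, replicate correlations at 0.99 to 0.997, and precision is limited by having 3 arrays a group.

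Probe sets with 1 annotated symbol (19460) were used, named through GRCh38.p14 gene IDs where these matched (19429), with the highest mean per gene, which left 18417 genes. A model of 6 group means over 18 arrays (12 residual degrees of freedom) was fitted with limma 3.58.1 in R 4.3.3 and tested on simulated data. Members and lists were chosen with earlier results of these data known. Named were all members, SNAI1, TWIST1, CDH1, EPCAM and 9p21 genes, up to 4 called genes per list and comparison whose groups did not overlap (no such condition for the difference of effects), and the 3 genes most like each of 4 members. Alternatives covered normalization, variance model, array weights, probe sets, dim genes, samples in the fit, a replicate block, the 2-fold limit and each array left out. Figures used matplotlib 3.10.9.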

Additional observations from a re-analysis of the deposited data

Results flagged for a closer look

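The values here are the log2 effect of Snail in HMLE minus that in MCF10A, given where the difference of effects in limma's model was at least 2-fold with an adjusted p under 0.05, which held for 4.58% of all genes upward and 4.04% downward. The members and the lists were chosen with these arrays' results known, so their values are a description and their numbers support nothing. Members given here were SDC2 (3.17), SULF1 (3.13), GPC6 (1.48), SULF2 (-2.17) and SDC1 (-1.04). The SDC1 call was lost without HMLE Snail replicate 1, where the difference lay at -1. Of the 100 other genes 11 had a more positive effect in HMLE and 5 a more negative one. Among heparan sulfate genes these were TGFBR3 (3.65), PXYLP1 (1.35), SDC3 (1.17), HS3ST2 (-1.52) and HPSE (-1.83).

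Among chondroitin and dermatan sulfate enzymes it held for DSEL (1.68), UST (1.53), CHSY3 (1.05), CHST15 (-1.48) and CHST11 (-1.91). Among other sulfotransferases and sulfatases it held for SULT1B1 (3.07), CHST2 (1.62), ARSJ (1.57), SULT1E1 (1.56) and ARSK (1.29). The sulfate transporter SLC26A2 (-1.09) differed by -0.47 from vector in HMLE and by 0.61 in MCF10A, UST by 0.98 and -0.55, and SULT1E1 by 1.05 and -0.51, so their effects had opposite signs.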

How the results depend on the processing

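Without the 2-fold limit the calls, in the order HMLE Snail, HMLE Twist, MCF10A Snail, labelled MCF10A Twist against MCF10A vector, HMLE Snail against Twist, MCF10A against HMLE vector, the difference of Snail effects and labelled MCF10A Twist against HMLE vector, numbered 8786 (1635 with it), 8052 (1453 with it), 4173 (329 with it), 9282 (1937 with it), 5921 (519 with it), 8102 (1170 with it), 7395 (1587 with it), 9058 (1657 with it) of all genes. Among the 100 other sulfation genes they numbered 61 (18 with it), 57 (15 with it), 28 (0 with it), 52 (20 with it), 46 (5 with it), 53 (14 with it), 46 (16 with it), 55 (11 with it). Among the members they moved by over 1.5 times in 4 comparisons: 6 for MCF10A Snail (3 with it), 6 for HMLE Snail against Twist (3), 7 for the vector groups (2) and 8 for the difference of Snail effects (5). For the other alternatives, each count of members, of the 100 genes and of all genes stayed within 1.5 times, with the exception of the 100 genes for MCF10A Snail, which went from 0 to 0 or 1 when single arrays were left out (1 without MCF10A vector replicate 1 or MCF10A Snail replicate 2).

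Deviations of same-numbered samples from their group means correlated positively at all 3 numbers for MCF10A Snail and vector (0.33, 0.1 and 0.07). They also did for labelled MCF10A Twist and MCF10A vector (0.31, 0.04 and 0.14) and for HMLE Snail and Twist (0.12, 0.25 and 0.05). Each other pair of groups compared had a negative value at 1 or more numbers. No pair was above 0.1 at all 3 numbers. Single values reached 0.33 (MCF10A Snail and vector, number 1) and -0.52 (HMLE Twist and vector, number 2). Other pairs of groups were not examined, so a batch shared by number was not tested beyond these pairs. With the replicate block, in the same order, 6, 5, 3, 7, 3, 2, 5, 5 members and 18, 15, 0, 20, 5, 14, 16, 11 of the 100 genes were called. A fit without the arrays labelled MCF10A Twist called 6, 5, 3, 3, 2, 5 members in the 6 comparisons that do not use them. In both fits the counts of all genes stayed within 1.5 times those of the main fit. The members and lists were chosen with these results known, so their counts are a description. No member's called difference changed sign. Over all alternatives 1171 recomputed member differences moved by less than the spread between replicates and 17 by more. For named list genes 1573 recomputed differences kept their call and 16 lost it, among them ARSD on the arrays labelled MCF10A Twist against MCF10A vector (-1.2, and -0.96 without labelled MCF10A Twist replicate 1). The filter on dim genes kept 9 of 9 members and 66 of the 100 genes. The estimate of array weights stopped before it converged.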
